A study of Mus musculus with 12 samples.

Results

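The Bcl2 family was examined over 12 single cultured cardiac progenitor cells (CPCs), in 10 named genes of the 21729 genes in the deposited table. The genes were taken by name. The 3 survival members were Bcl2, Bcl2l1 and Mcl1. The 7 death members were the effectors Bax and Bak1 and the BH3-only genes Bcl2l11, Bid, Bbc3, Pmaip1 and Bad. All 10 were in the table.

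Proteins of the Bcl2 family decide whether the outer mitochondrial membrane stays intact. Bax and Bak1 form pores that let cytochrome c out and start the caspase cascade, and Bcl2, Bcl-xL (the product of Bcl2l1) and Mcl1 hold them in check. BH3-only proteins sense stress: Bim (Bcl2l11) follows loss of growth factors, Puma (Bbc3) and Noxa (Pmaip1) are p53 targets, Bid is cleaved after death receptor signalling and Bad is silenced by survival kinases. Much of this control acts on proteins, which were not measured.

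All cells belonged to 1 group. They came from hearts of female FVB mice aged 12 weeks, from the non-myocyte fraction sorted as lineage-negative and c-Kit+, and had been grown for 5 passages on gelatin in serum medium with leukemia inhibitory factor, basic fibroblast growth factor and epidermal growth factor. The labels name no genetic change, and no uncultured cell was analysed here. Each library held 1 cell, with polyadenylated RNA copied along its whole length by Smart-Seq v4, and the labels name neither the animal nor the culture of a cell. Per the study's methods, hearts of more than a single animal were pooled in a preparation. The 12 cells therefore counted as 1 sample, each SD below is the spread between cells, and no test was made.

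Total counts ran from 3453708 in CPC1 to 5690184 in CPC12, and 10022 to 11950 genes had a count in a cell. A count of 0 allowed up to 3 counts, or 0.527 to 0.869 CPM (counts scaled to 1000000 per cell), a one-sided 95% limit that covers counting error only; the Poisson intervals below are central. Kit, which encodes the sorted c-Kit protein, was counted in CPC10 alone, at 21 counts, and was at 0 in the other 11 cells. CPC10 stood apart also by its summed endothelial markers (9792 CPM, against at most 64.3 CPM elsewhere) and had the lowest fibroblast sum (188 CPM, against up to 6333 CPM in CPC12). Within the endothelial list Cldn5 and Vwf were at 0 in every cell, and within the cardiomyocyte list Myh6, Actc1, Actn2 and Ryr2 were at 0. CPC3 held the highest summed haematopoietic markers (160 CPM, lowest 2.99 CPM). CPC11 held the highest summed mural markers (3737 CPM, against at most 172 CPM elsewhere), of which Acta2 made up 3668 CPM. Ddx3y and Eif2s3y, which lie on the Y chromosome, were counted in all 12 cells, although the labels give female mice.

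The promoters of Mcl1 and Bax are shown because these genes were the leading survival and effector members. The windows run from 250 bases before to 50 bases after the RefSeq start (GRCm38.p6), at chr3:95658471-95658770 on the plus strand for Mcl1 and at chr7:45466849-45467148 on the minus strand for Bax. Capitals mark matches, on either strand, to an Sp1 box (GGGCGG), an ETS core (CCGGAAG), an E-box (CACGTG) and the p53 half-site.
Mcl1: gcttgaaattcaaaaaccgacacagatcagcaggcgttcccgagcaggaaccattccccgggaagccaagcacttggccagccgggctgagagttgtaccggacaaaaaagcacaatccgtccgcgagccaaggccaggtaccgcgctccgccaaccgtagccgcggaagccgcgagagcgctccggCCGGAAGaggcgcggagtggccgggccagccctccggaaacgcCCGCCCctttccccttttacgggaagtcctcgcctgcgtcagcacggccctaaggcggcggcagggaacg
Bax: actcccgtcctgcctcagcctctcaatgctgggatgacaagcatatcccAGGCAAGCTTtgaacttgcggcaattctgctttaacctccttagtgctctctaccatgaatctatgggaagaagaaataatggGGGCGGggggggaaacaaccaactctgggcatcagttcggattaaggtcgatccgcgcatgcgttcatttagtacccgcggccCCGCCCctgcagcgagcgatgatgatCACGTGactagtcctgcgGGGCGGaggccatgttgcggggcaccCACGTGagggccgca
The Mcl1 window held an ETS core and an Sp1 box, and no p53 half-site. The Bax window held 2 E-boxes, 3 Sp1 boxes and a p53 half-site.

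Member windows on chromosome 18 were left out, so Pmaip1 was not searched. The other 9 members had 15 such windows. Among all 32851 windows, the Sp1 box was in 35.7%, the E-box in 7.15%, the ETS core in 8.86% and the p53 half-site in 8.36%. Of the 15 member windows, 10 held the Sp1 box, 2 the E-box (Bax and Bbc3), 3 the ETS core (Bcl2l1, Bcl2l11 and Mcl1) and 1 the p53 half-site (Bax). A CCAAT box (CCAAT) was in 4 member windows and 37.4% of all windows, and a TATA box (TATAAA) was in none of the 15 and 13.6% of all windows. Some genes had several windows, and a match describes letters and not a site in use.

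The survival side was carried by Mcl1, with Bcl2l1 behind it and Bcl2 far below both. Most family members were read in every cell: 7 of the 10 had at least 1 count in all 12 cells, where 35.3% of all genes did. A mean of at least 10 CPM was reached by 8 of 10 members and by 39.1% of all genes. Of the 120 values of a member in a cell, 4 were at 0 counts.

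Mcl1 encodes a short-lived protein that binds Bim, Noxa and Bak. The gene (ENSMUSG00000038612.16) lies on chromosome 3, from 95658788 to 95663176 on the plus strand in the mm10 annotation GENCODE vM21. Mcl1 had a lowest level of 127 CPM in CPC1, a median of 194 CPM and a highest level of 480 CPM in CPC10, with a mean of 243 ± 111 CPM (SD, 12 cells). CPC5 (375 CPM) and CPC7 (369 CPM) followed CPC10, and the highest level was 3.77 times the lowest. Mcl1 was thus abundant in each cell, and its raw counts ran from 440 to 2555.

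Bcl2l1 gives rise mainly to Bcl-xL, which restrains Bax at the membrane. It lies on chromosome 2 (152780668 to 152831728, minus strand). Bcl2l1 ranged from 44.1 CPM in CPC12 over a median of 86.8 CPM to 279 CPM in CPC11, with a mean of 120 ± 73.7 CPM (SD, 12 cells). CPC11 and CPC7 (242 CPM) stood above the rest, the next cell being CPC10 at 146 CPM, while CPC12 and CPC1 (44.6 CPM) formed the low end. The range was 6.32-fold.

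Bcl2 itself, the founding member of the family, was scarce. It lies on chromosome 1 (106538178 to 106714274, minus strand). Bcl2 had a lowest level of 0 in CPC10, a median of 3.59 CPM and a highest level of 11.2 CPM in CPC11, with a mean of 4.39 ± 3.82 CPM (SD, 12 cells). In CPC2, CPC6 and CPC8 it rested on 2 counts each, for which the exact 95% Poisson interval was 0.242 to 7.22 counts. CPC11 was at least 19.9-fold above the floor of 3 counts in CPC10, and 62 counts were read there. The cells thus fell into 4 with 2 counts or fewer and 8 with 12 to 62 counts.

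**Figure D1:**
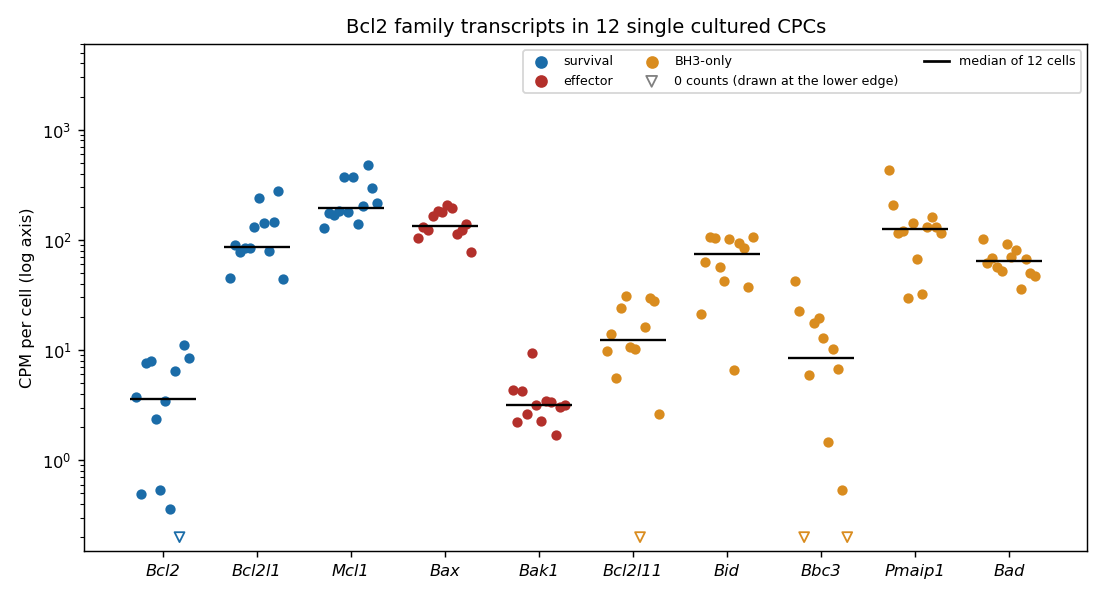
Level of each member in each of the 12 cells, in CPM on a log axis; each point is 1 cell, cells stand from CPC1 at the left to CPC12 at the right within a member, the line is the median, and an open triangle is a count of 0. Mcl1, Bcl2l1, Bax, Pmaip1 and Bad lie at 29.6 CPM or more in every cell, whereas Bcl2, Bak1, Bcl2l11 and Bbc3 reach 0 or a few CPM.

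The effectors were unequal: Bax was among the most abundant and least variable members, and Bak1 was low, though counted in every cell. Bax (ENSMUSG00000003873.11) moves from the cytosol to mitochondria on activation and lies on chromosome 7 (45461697 to 45466898, minus strand). Bax ranged from 76.8 CPM in CPC12 over a median of 135 CPM to 207 CPM in CPC7, with a mean of 144 ± 40.3 CPM (SD, 12 cells). All cells lay within 2.70-fold of each other, with CPC8 (195 CPM) next to CPC7 at the top.

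Bak1, the effector that resides at mitochondria, lies on chromosome 17 (27019810 to 27029009, minus strand). Bak1 ranged from 1.69 CPM in CPC10 over a median of 3.18 CPM to 9.35 CPM in CPC5, with a mean of 3.58 ± 1.98 CPM (SD, 12 cells). It was counted in all 12 cells, by 9 to 47 reads, and CPC5 stood alone above the next cell at 4.34 CPM.

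Among the BH3-only genes, Pmaip1, Bid and Bad were abundant, and Bcl2l11 and Bbc3 were low. Pmaip1 encodes Noxa, which binds Mcl1 and promotes its destruction, and it lies on chromosome 18 (66458533 to 66465565, plus strand). Pmaip1 had a lowest level of 29.6 CPM in CPC5, a median of 125 CPM and a highest level of 432 CPM in CPC1, with a mean of 140 ± 105 CPM (SD, 12 cells). CPC1 was far above the next cell, CPC2 at 206 CPM, and the range was 14.6-fold. Without CPC1 the mean was 114 CPM.

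Bid couples death receptors to mitochondria once caspase 8 has cut it. It lies on chromosome 6 (120891930 to 120916853, minus strand). Bid ranged from 6.54 CPM in CPC8 over a median of 73.8 CPM to 107 CPM in CPC3, with a mean of 68.5 ± 35.6 CPM (SD, 12 cells). CPC8 was the low cell, CPC1 followed at 21.4 CPM, and the range was 16.3-fold. Bcl2l13, whose exons on the opposite strand share 17.7% of the exon bases of Bid, was lowest in the same cell, CPC8, at 1 count or 0.182 CPM; whether the genes shared reads was not tested.

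Bad, which is held by 14-3-3 proteins when phosphorylated, lies on chromosome 19 (6941861 to 6951899, plus strand). Bad ranged from 36.1 CPM in CPC9 over a median of 64.0 CPM to 102 CPM in CPC1, with a mean of 65.3 ± 19.2 CPM (SD, 12 cells). Its range of 2.84-fold was close to that of Bax, and no cell stood apart.

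Bcl2l11 encodes Bim, which engages all of the survival proteins. It lies on chromosome 2 (128126038 to 128162547, plus strand). Bcl2l11 had a lowest level of 0 in CPC8, a median of 12.4 CPM and a highest level of 31.2 CPM in CPC5, with a mean of 15.2 ± 10.7 CPM (SD, 12 cells). CPC5, CPC10 (29.9 CPM) and CPC11 (27.8 CPM) were high, and CPC5 was at least 57.3-fold above the floor in CPC8. CPC8 was thus the lowest cell for both Bid and Bcl2l11.

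Bbc3 encodes Puma and lies on chromosome 7 (16308393 to 16318205, plus strand). Bbc3 had 0 counts in CPC3 and CPC12, a median of 8.52 CPM and a highest level of 42.3 CPM in CPC1, with a mean of 11.6 ± 12.5 CPM (SD, 12 cells). CPC11 held 3 counts, with an exact 95% Poisson interval of 0.619 to 8.77 counts. CPC1 was at least 53.4-fold above the highest floor of the 2 cells at 0, and CPC2 (22.5 CPM) followed it. CPC1 was therefore the highest cell for 3 BH3-only genes, Pmaip1, Bbc3 and Bad.

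**Figure D2:**
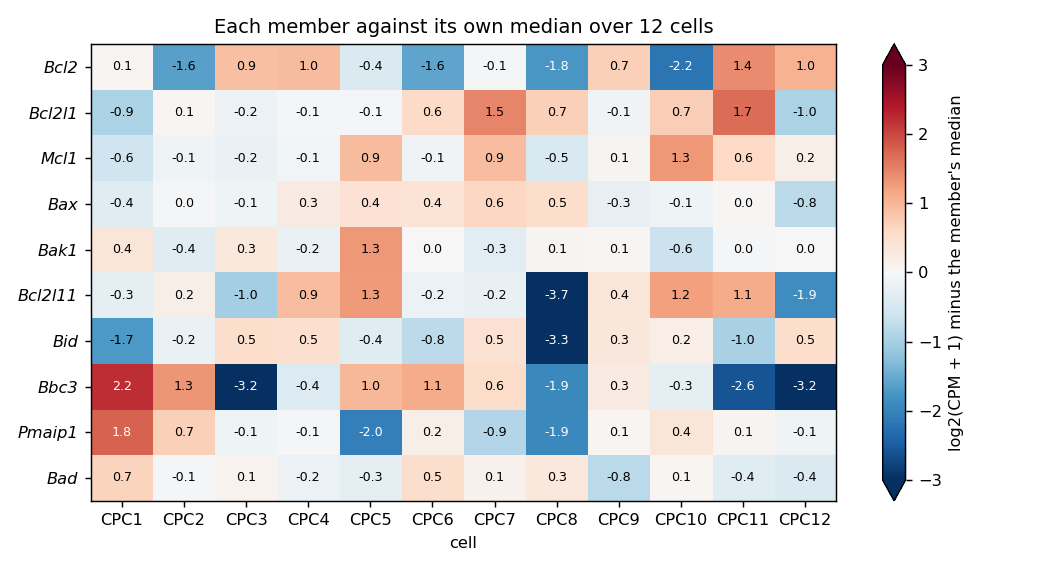
log2(CPM + 1) of each member in each cell minus the median of that member over the 12 cells; red is above and blue below the median, colours stop at 3 and the printed numbers give the value. CPC1 is red for Pmaip1, Bbc3 and Bad and blue for Bid and the 2 main survival members, and CPC8 is blue for Bcl2l11, Bid, Bbc3 and Pmaip1.

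Levels of different genes were compared per length, as TPM (counts divided by the joined exon length of the gene and scaled to 1000000 per cell). By median TPM the order was Bax (244), Mcl1 (162), Pmaip1 (134), Bad (67.3), Bid (59.7), Bcl2l1 (53.3), Bbc3 (11.9), Bcl2l11 (4.28), Bak1 (3.84) and Bcl2 (1.06). Between neighbours in this order the ranges over cells always overlapped. The mean TPM differed by more than the larger SD for 2 neighbouring pairs, Bcl2l1 over Bbc3 (higher in 11 of 12 cells) and Bak1 over Bcl2 (12 of 12). Bax exceeded Mcl1 in 10 of 12 cells and Mcl1 exceeded Pmaip1 in 10 of 12. Bid, placed above Bcl2l1 by its median, exceeded it in 4 of 12 cells.

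The head of this order rested on the length chosen. In CPM, with no length, Mcl1 exceeded Bax in 11 of 12 cells. Per length of the longest transcript Mcl1 exceeded Bax in 1 of 12 cells, and per coding length in 6 of 12. Mcl1 exceeded Pmaip1 in 3 of 12 cells per coding length. Bax exceeded Pmaip1 in 11 of 12 cells per joined exon length and per longest transcript, in 7 of 12 in CPM and in 3 of 12 per coding length. Mcl1 exceeded Bcl2l1 in 12 of 12 cells per joined exon length, in 11 in CPM, in 10 per longest transcript and in 9 per coding length. Bax over Bak1 held in 12 of 12 cells on each of these 4 scales, as did Bcl2l1 over Bcl2.

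The summed survival members stayed below the summed death members in each cell. The survival sum was 276 ± 125 TPM (SD, 12 cells), from 124 TPM in CPC1 to 505 TPM in CPC10. The death sum was 548 ± 94.3 TPM (SD, 12 cells), from 422 TPM in CPC12 to 766 TPM in CPC1. The death sum varied less between cells, and its range overlapped that of the survival sum. It adds 7 genes against 3, so its size alone is no measure of balance.

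The log2 ratio of the survival sum to the death sum ran from -2.63 in CPC1 over a median of -1.18 to -0.18 in CPC10, with a mean of -1.10 ± 0.71 (SD, 12 cells). No cell was above 0. CPC11 (-0.21), CPC7 (-0.45) and CPC5 (-0.48) followed CPC10, and CPC2 (-1.59) was next to CPC1. Over the effectors Bax and Bak1 alone, the log2 ratio had a median of -0.08 and a mean of 0.01 ± 0.59 (SD, 12 cells), from -0.79 in CPC8 to 1.14 in CPC10. By that measure 6 of 12 cells were above 0, and without division by length 4 of 12 cells were above 0 for all members.

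**Figure D3:**
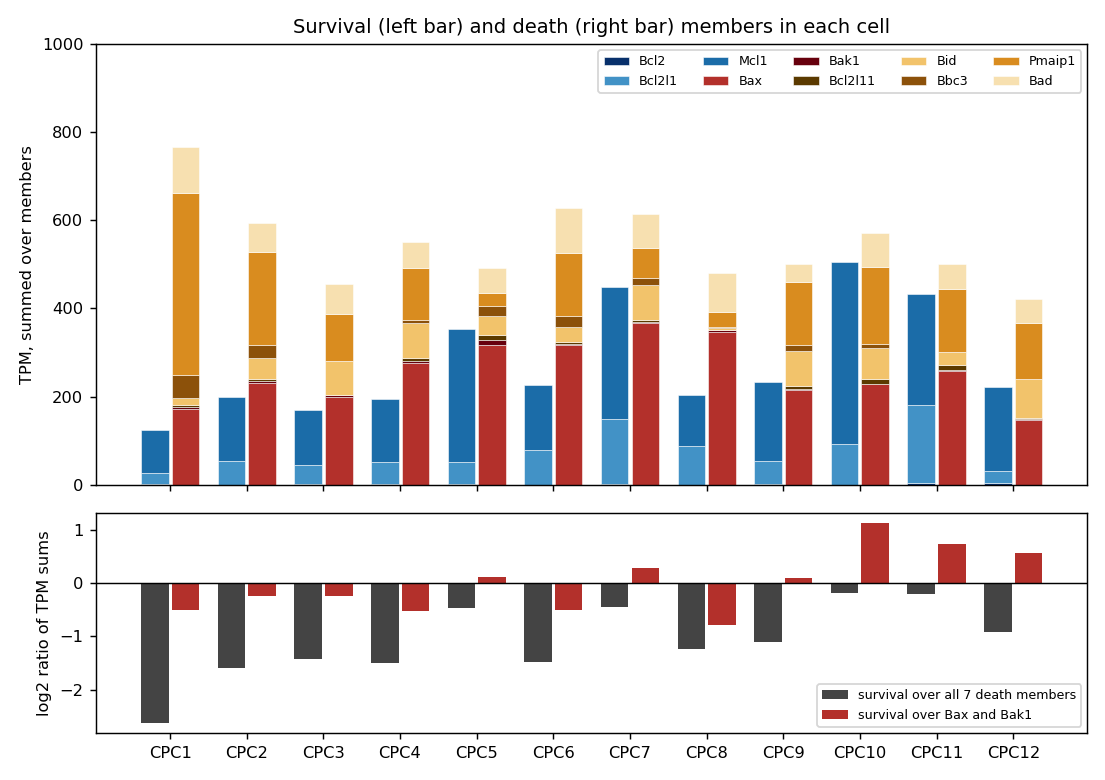
Upper panel: TPM summed over the 3 survival members (left bar) and the 7 death members (right bar) of each cell, stacked by gene; lower panel: log2 ratio of the survival sum to the sum of all death members (grey) and to Bax and Bak1 (red). Grey bars are below 0 in all 12 cells, and red bars are above 0 in 6.

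Per joined exon length, Mcl1 was the highest survival member in 12 of 12 cells and made up 72.9% ± 9.66 (SD) of the survival sum in TPM, from 56.8% in CPC8 to 85.8% in CPC12. Bcl2l1 made up 26.5% ± 9.80 (SD, 12 cells) and Bcl2 0.576% ± 0.512 (SD, 12 cells). On the death side Bax was, per joined exon length, the highest member in 11 of 12 cells, at 47.6% ± 13.7 (SD) of the death sum, from 22.5% in CPC1 to 72.4% in CPC8. The exception on this scale was CPC1, where Pmaip1 made up 54.0% of the death sum. Pmaip1 otherwise fell as low as 6.09% in CPC5.

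Opposed pairs spread differently over the cells. Bcl2l1 over Bax in TPM was below 0 on the log2 scale in 12 of 12 cells, from -2.76 in CPC1 to -0.53 in CPC11. In CPM Bax exceeded Bcl2l1 in 9 of 12 cells, and per coding length in 11 of 12. Mcl1 over Pmaip1, the protein pair in which Noxa targets Mcl1, spanned from -2.08 in CPC1 to 3.34 in CPC5, and was above 0 in 10 of 12 cells. CPC1 thus combined the lowest Mcl1 with the highest Pmaip1, and CPC5 had the lowest Pmaip1 with high Mcl1.

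By median, the ratio was higher in the deeper libraries. Cells fell into 2 sets by the number of genes with a count, 5 cells with 10022 to 10181 genes and 7 cells with 11216 to 11950. The 5 cells also had the highest totals, 5258541 to 5690184 counts, against 3453708 to 5025517 in the 7. The log2 survival over death ratio was -1.24 to -0.18 (median -0.45) in the 5 cells and -2.63 to -0.48 (median -1.48) in the 7. Within the 7 cells, r of the ratio with the log2 total was 0.88 (Spearman rho 0.71), and the 5 cells were too few for a value. Median Mcl1 was 294 CPM in the 5 cells and 180 CPM in the 7, while median Bax was 138 and 131 CPM. After all cells were thinned to 3453708 counts, the median ratio was -1.15 and no cell was above 0. Whether depth or gene number had a part in the ratio was not tested.

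**Figure D4:**
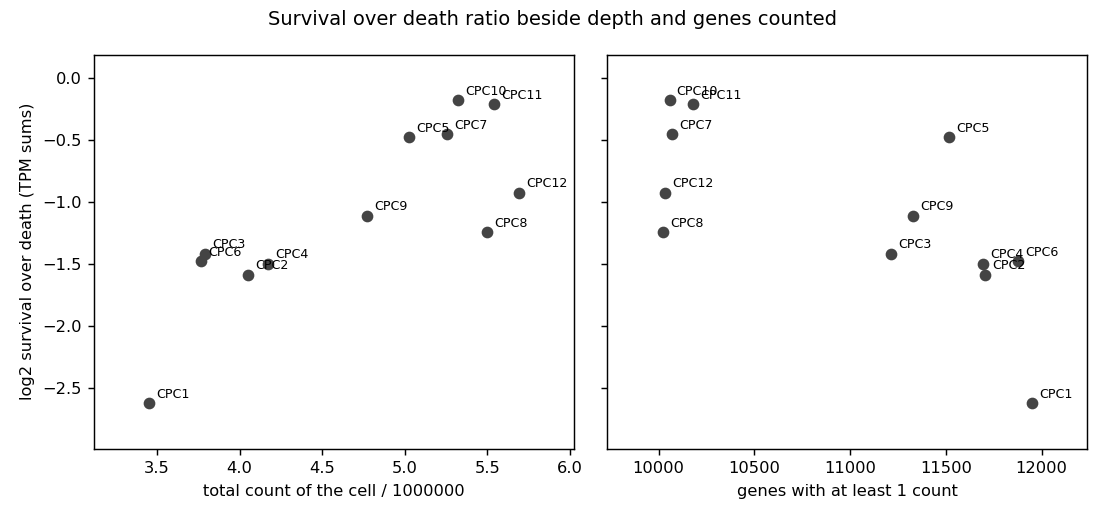
log2 survival over death ratio of the TPM sums against the total count (left, in units of 1000000) and against the number of genes with at least 1 count (right); each point is 1 cell. The 5 cells with 10022 to 10181 genes carry the highest totals and ratios from -1.24 to -0.18, and CPC1, with the lowest total and the most genes, has the lowest ratio, -2.63.

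Variation between cells was set against genes of like abundance. The dispersion residual takes the squared coefficient of variation of CPM on a log10 scale and subtracts its running median over genes of similar mean, so that 0 is typical. It was computed for 8 members, since Bcl2 and Bak1 lay under the mean of 5 CPM required. Residuals above 0.3 were found for 2 of the 8, Pmaip1 (0.55) and Bcl2l1 (0.37), where 19.2% of 9701 genes had one. With so few members a share of 2 in 8 is near that background. Bad (-0.39) and Bax (-0.29) were below 0, with coefficients of variation of 29.5% and 27.9%. Bbc3 had the highest coefficient, 107%, but a residual of 0.28 beside genes of its low abundance. The median over the 8 members was 0.13, against 0.00 over all genes.

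**Figure D5:**
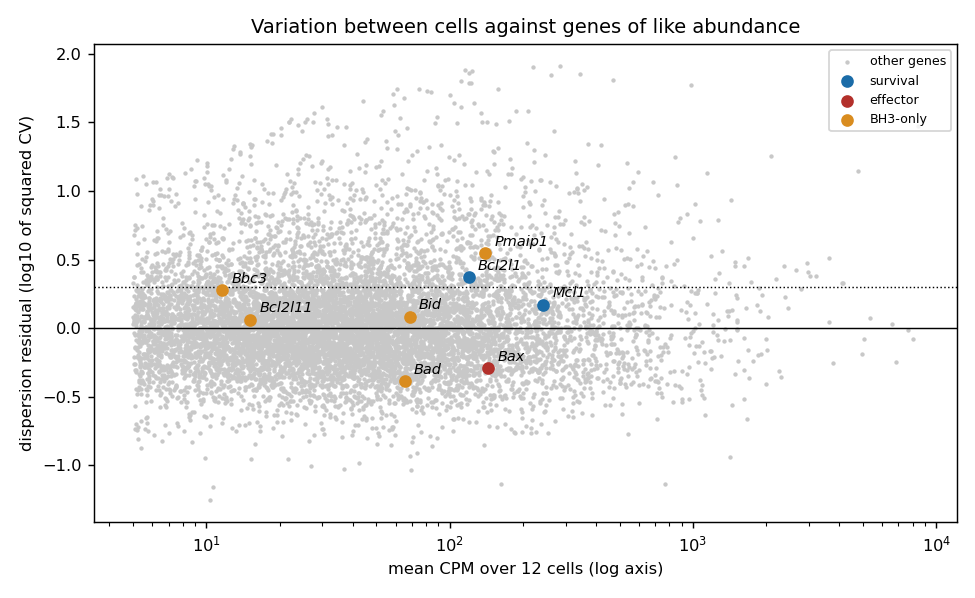
Dispersion residual (log10 of the squared coefficient of variation minus the running median) against mean CPM over 12 cells on a log axis, for 9701 genes in grey and 8 members in colour; the dotted line is 0.3. Pmaip1 and Bcl2l1 lie above the line, and Bax and Bad lie below 0.

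Pairs of members were compared over the cells. Over the 45 pairs of members, Pearson's r of log2(CPM + 1) across 12 cells had a median of 0.03, beside 0.02 over all pairs of the genes that average 10 CPM or more. None of the 45 exceeded 0.7 in size, where 2.21% of all pairs of those genes did, and 0 in 45 is near that background. Of the 45, 17 involve Bcl2 or Bak1, which average under 10 CPM. The median was 0.08 over 21 pairs of death members, 0.00 over 21 pairs of a survival and a death member, and -0.10 over the 3 survival pairs. By Spearman the medians were -0.03, -0.06 and 0.01, so neither order nor sign held. All points of a correlation here share the libraries and their depth, so these values are descriptions.

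The highest r was 0.65 for Bcl2l1 and Bax (rho 0.64, 12 cells), and 0.72 without CPC7 and CPC11. As the highest of 45 values, that r is high by selection. Mcl1 and Bcl2l11 followed at 0.56 (rho 0.67), which was 0.38 without CPC5 and CPC10. Mcl1 and Bcl2l1 had r = 0.50 (rho 0.38), and 0.30 without CPC7 and CPC11. The lowest r was -0.60 for Bax and Pmaip1 (rho -0.52), and -0.77 without CPC7 and CPC12. Bcl2l11 and Bid had r = 0.52 but a rho of -0.06, and r was -0.01 without CPC8 and CPC12, so that value rested on those cells.

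Among the 8492 genes that average 10 CPM or more, the gene most like each member in r of log2(CPM + 1) over 12 cells was named, as a description. For Bax it was Kank2 at r = 0.93 (rho 0.95), followed by Vmac (0.90) and Calm3 (0.87). For Mcl1 it was Wbp1l (0.86), followed by Cpt1a (0.86) and Kmt2e (0.85). Without CPC10 these were 0.79, 0.92 and 0.78, so their order rested on that cell. For Bcl2l1 it was Fam149b (0.86), followed by Armc9 (0.85) and Tax1bp3 (0.85). Without CPC10 these were 0.88, 0.85 and 0.89, so Tax1bp3 came first.

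For the BH3-only genes, Bcl2l11 was most like Gigyf2 (0.92), Zmym2 (0.91) and Tbc1d14 (0.90). Bid was most like Tmed8 (0.94), Tmem251 (0.93) and 1110008L16Rik (0.87), with rho of 0.79, 0.62 and 0.69. Bbc3 was most like Mtmr4 (0.89), Kif21a (0.88) and Rpl13 (0.85). Pmaip1 was most like Trp53i13 (0.85), Atp7a (0.80) and Cd320 (0.78), and Bad was most like Prr14l (0.82), Rnaseh2c (0.79) and Myo18a (0.78). None of these genes was a member of the family, and the highest of 8492 values is high by selection.

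The rest of the family was read from fixed lists. Of the 5 other anti-apoptotic genes, Bcl2l2, which encodes Bcl-w, was counted in all 12 cells at 9.31 ± 5.67 CPM (SD). Bcl2l10 was counted in 2 cells, Bcl2a1a had 1 count in CPC1, and Bcl2a1b and Bcl2a1d had none. The Bcl2a1 genes are near-identical copies, so their counts are uncertain. In TPM, Bcl2l2 exceeded Bcl2 in 11 of 12 cells.

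Of the 10 other pro-apoptotic genes, 4 were counted in all 12 cells, where 35.3% of all genes were. With so few genes, 4 in 10 is near that background. Bok, an effector-like relative of Bax and Bak1, stood at 91.1 ± 68.4 CPM (SD, 12 cells). Its TPM ran from 10.9 in CPC3 over a median of 136 to 392 in CPC8, above Bak1 in 12 of 12 cells, above Mcl1 in 3 and above Bax in 2. The mitophagy receptor gene Bnip3l had the highest mean of the list, 175 ± 64.8 CPM (SD, 12 cells), and Bnip3 had the highest residual (0.51), at 73.1 ± 62.2 CPM (SD). Bcl2l13 had a mean of 19.2 CPM and a highest level of 32.1 CPM. Bik reached 56 counts in CPC10 and Bmf 42 counts in CPC7, and Hrk was at 0 in all cells. With Bok added to the death sum and Bcl2l2 to the survival sum, the median log2 ratio was -1.52.

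Downstream of the family, all 9 mitochondrial partners were counted in every cell, where 35.3% of all genes were. The outer membrane channel gene Vdac2 was the highest, at 1179 ± 371 CPM (SD, 12 cells), and the nuclease gene Endog the lowest, at 3.57 ± 2.49 CPM, and Aifm1 had the highest residual (0.15). Cytochrome c, from Cycs, was at 213 ± 63.6 CPM (SD). Of the 7 caspase and apoptosome genes, 6 were counted in every cell. The initiator gene Casp8 was the highest, at 95.0 ± 42.6 CPM (SD), and Casp2 the lowest, at 10.8 ± 9.87 CPM.

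Of the 5 inhibitors of apoptosis, Birc5, which encodes the mitotic protein survivin, had both the highest mean (204 ± 254 CPM, SD, 12 cells) and the highest residual (1.03). It ran from 10.0 CPM to 706 CPM in CPC9, the cell with the highest summed G2/M genes. Birc3 was lowest, at 8.15 ± 8.05 CPM (SD). Xiap, the direct caspase inhibitor, had 27.7 ± 12.2 CPM (SD, 12 cells). Of the 8 listed death receptors, adaptors and related genes upstream of Bid, all were counted in every cell, where 35.3% of all genes were. Their means ran from Fadd (6.37 CPM) to Cflar (170 CPM), and Tnfrsf1a had the highest residual (0.43).

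Most of the listed regulators and p53 targets were counted in most cells. Among 12 p53 genes, Ccng1 had the highest mean, 897 ± 385 CPM (SD, 12 cells), and Perp the lowest mean and highest residual, 21.1 CPM and 0.80. CPC1 held the highest Mdm2 (1187 CPM) and Cdkn1a (1430 CPM), as it did for Pmaip1 and Bbc3. The other 10 genes of that list peaked in other cells, and Bax was second lowest in CPC1, at 104 CPM. Over 12 cells Pmaip1 had r of 0.16 with Mdm2 and 0.09 with Cdkn1a. Without CPC10 these were 0.23 and 0.40. They were -0.54 and 0.02 without the 2 cells farthest from the median of the paired gene. Bbc3 and Mdm2 had r = 0.72 (rho 0.76), and 0.56 without the 2 cells farthest from the median. Of 28 pairs of a member with a candidate regulator or a p53 target, Bbc3 and Mdm2 were the 1 pair above 0.7 in size. Of all pairs of genes averaging 10 CPM or more, 2.21% were, and the median over the 28 was 0.17. A share of 1 in 28 is near that background.

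The other pairs were weaker. Bbc3 and Foxo3 had r = 0.63, and Bcl2l11 and Foxo3 had r = 0.58. Stat3, which acts below leukemia inhibitory factor, had r = 0.61 with Bcl2l1 (0.41 without the 2 farthest cells) and 0.55 with Mcl1 (0.02 without them). Pmaip1 and the stress factor Atf4 had r = -0.24, and Bid and Casp8 had r = -0.32.

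In the remaining lists, Atf4 led the 5 stress factors, at 302 ± 107 CPM (SD, 12 cells), Trib3 was the lowest (27.5 CPM) and Atf3 had the highest residual (1.15). Dynll1, which tethers Bim, led the Foxo and Bim list at 713 ± 145 CPM (SD), Foxo3 had the highest residual (0.00) and Foxo4 was counted in 2 cells. Among the 10 Bad kinase and 14-3-3 genes, Ywhae was the highest and the least variable, at 770 ± 73.0 CPM (SD) with a residual of -1.14, Ywhag had the highest residual (0.38), and Sfn was counted in 2 cells. Of the genes for Mcl1 turnover, Usp9x (76.0 CPM), whose product spares Mcl1, was the highest and Fbxw7 (13.8 CPM) the lowest, with the highest residual (0.15). In the list for leukemia inhibitory factor, Jak1 was the highest (185 CPM), Pim1 the lowest (3.90 CPM) and Lifr the most variable (residual 0.58; 80.4 CPM in CPC10).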

How the data were processed

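The authors mapped reads to mm10 with STAR 2.5.2b, per the labels, and deposited raw counts per gene and cell. The counting program, annotation and strand setting are not given in the sources used here. Exon bases shared with another gene made up 12.2% for Bax (same strand), and 18.2% and 7.35% for Bak1 (2 models of 1 neighbour), 17.7% for Bid, 20.5% for Bad and 6.09% for Bcl2 (opposite strand), where reads cannot be told apart.

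CPM and TPM were computed here from the deposited counts. Lengths came from GENCODE vM21 (98.4% of 21729 symbols matched, with 98.8% of counts), promoters from RefSeq. The dispersion trend was a running median over 201 genes averaging 5 CPM or more and counted in at least 3 cells. The steps were tested on simulated data. No 2 libraries were duplicates (chi-square over degrees of freedom at least 42.3 in 66 pairs). Named genes were the members, the 3 most alike genes for each of 8 members, and from each list the genes of highest mean, lowest mean and highest dispersion and those at 0 counts; other list genes were chosen after their values were seen. Some listed genes are not reported here. Members and lists were chosen with earlier results of these data known. Doublets were not called. Alternatives varied scaling, depth, length, members, scale and cells. Python 3.11.15, numpy 2.4.6, pandas 2.3.3 and scipy 1.17.1 were used.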

Additional observations from a re-analysis of the deposited data

How the results depend on the processing

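Over 16 results, 58 of 67 alternatives stayed within the spread between cells and kept their sign. The median log2 survival over death ratio (-1.18, with 0 cells above 0) was -0.42 with 4 cells above 0 without division by length, -0.075 with 6 cells against Bax and Bak1 only, and -3.24 with Mcl1 left out. It was -0.79 with 2 cells above 0 both without Bad and Bid and, chosen after seeing the data, without Pmaip1. The other ratio settings kept 0 cells above 0: -1.31 per longest transcript and, chosen after seeing the data, -1.41 per coding length, -1.52 with Bok and Bcl2l2, -1.15 thinned and -1.18 without CPC3 and CPC10. The median member pair r (0.03) was -0.028 by Spearman and -0.036 with size factors, so its sign depended on the setting. Leaving out 1 cell gave -1.24 to -1.11 for the ratio, 0.04 to 0.17 for the dispersion residual and -0.064 to 0.077 for the pair r, which was below 0 without CPC5, CPC8 or CPC12. Members counted in all cells numbered 6 at 10 counts and 8 without CPC3 and CPC10. A coding length from RefSeq proteins was not run. No paired analysis was possible because there is 1 group and no test. Depth limits Bcl2, Bbc3 and Bcl2l11, where counts of 0 to 3 cannot be ordered.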
